A study of Homo sapiens with 12 samples.

Results

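HuH-7 cells given a mimic of miR1908-5p were compared directly with HuH-7 cells given an inhibitor of the same microRNA, so that cells meant to have the most and the least miR1908-5p activity in the series stood against each other and no control oligonucleotide entered the difference. HuH-7 is a human hepatoma line. The comparison takes 6 of the 12 arrays of the series, chosen by their labels alone as the 3 mimic and the 3 inhibitor arrays, over all 53617 probe sets. Cells were grown in low glucose DMEM with serum and transfected for 72 h with Lipofectamine RNAiMAX, with the oligonucleotide at 9 nM by the sample labels and 10 nM by the methods. The mimic was a miRIDIAN double strand and the inhibitor a miRIDIAN hairpin, so the arms differ in the kind of oligonucleotide as well as in its aim. The other 6 arrays hold the control made for each kind, 3 mimic control and 3 inhibitor control cultures, both coupled to the dye Dy547. They are used here to estimate the spread and as a check of oligonucleotide type. All 4 treatments were carried out on each of 3 occasions, and the repeat number pairs the arrays of 1 occasion.

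A microRNA guides the Argonaute complex to messenger RNAs that pair with its seed, bases 2 to 8 from its 5′ end, which usually lowers the amount or the translation of those messengers. A mimic adds the active strand to the cell, and an inhibitor binds the strand that the cell already makes, so a target repressed by miR1908-5p would be lower with the mimic than with the inhibitor. The MIR1908 gene lies within a desaturase gene cluster of lipid metabolism, and LKB1, the product of STK11, is the kinase that switches on the energy sensor AMPK.

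The sequence shows what was added and what was blocked. In RefSeq, miR1908-5p is encoded at chr11:61815209-61815229 on the minus strand of GRCh38.p14, and another 3 of the 2370 mature human miRNAs in the table carry the same seed, given here in capitals. They are shown because an oligonucleotide with this seed shares its seed pairing with them.
hsa-miR-1908-5p: cGGCGGGGacggcgauugguc
hsa-miR-663a: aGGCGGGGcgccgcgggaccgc
hsa-miR-6787-5p: uGGCGGGGguagagcuggcugc
hsa-miR-10396b-5p: cGGCGGGGcucggagccggg
Guanine and cytosine made up 76.2% of the miR1908-5p sequence. The array's probe set for the MIR1908 gene stood at a log2 value of 6.68, 7.09 and 6.99 with the mimic and 6.85, 6.98 and 6.91 with the inhibitor on occasions 1, 2 and 3. These values overlap, and their mean difference was 0.01, so the gene's probe set did not separate the arms. It was not used as a measure of the transfected strand.

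Each array gave 1 normalized log2 expression value per probe set, and every level below is such a value. Array medians ran from 4.99 to 5.15. Probe set values were spread least on occasion 3, with an SD of 1.95 for mimic replicate 3 and 1.98 for its control where the other arrays had 2.02 to 2.06, and the lowest array weight, 0.38, went to mimic replicate 3. Of the liver markers fixed for the check, ALB, the serum protein albumin, was between 12.86 and 13.11 over the 6 arrays. The fetal liver protein AFP was between 12.70 and 13.21. Not every marker stood so high, and CYP2B6 was between 4.49 and 7.27. Of the leukocyte markers CD68 and LYZ, both with described expression outside leukocytes, stood at 7.22 to 8.82 and 10.27 to 11.33. Differences are mimic minus inhibitor on the log2 scale, paired by occasion, from limma fitted to the 4 groups and 3 occasions, and n = 3 arrays a group throughout. The labels describe repeats on distinct occasions, and the p-values measure the spread between these cultures. The median standard error of a difference was 0.17. An array reads the RNA of a whole culture, so fewer cells with a transcript and less of it per cell cannot be told apart.

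Across the whole array 5 probe sets of 53617 (0.00933%) differed at an adjusted p under 0.05 in limma, 4 lower with the mimic (0.00746%) and 1 higher (0.00187%), and all 5 belong to protein-coding genes. The probe sets of ILK, FKBP8, WIPF3, SNORA2A, PRKAA2, PRKAB2, PIK3R2, ME1, SLC25A1, ACTN1, ABL1, ATP5F1D and CYP2B6 carry their names from the study's tables alone, and the platform annotation used here does not name them. AATF, ILK, CNN2 and DDA1 fell, and KLF2 rose. At an unadjusted p under 0.05 there were 5918 probe sets, 3600 lower (6.71%) and 2318 higher (4.32%). Among 12018 named protein-coding genes, with 1 probe set each, 1255 were lower (10.4%) and 439 higher (3.65%), and the median difference was -0.04. The 3 mimic and 3 inhibitor values did not overlap, with the mimic lower, in 9.87% of these genes and with the mimic higher in 5.16%. Where p-values were adjusted over the 16233 probe sets with 1 gene symbol alone, 88 passed (0.542%), 71 lower (0.437%) and 17 higher (0.105%).

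AATF, a nuclear factor that takes part in the assembly of the small ribosomal subunit and in transcription, had log2 values of 6.97, 7.39 and 6.61 with the mimic and 9.10, 9.17 and 9.04 with the inhibitor. Every mimic array was below every inhibitor array. The difference was -2.11 (standard error 0.17), a 4.32-fold lower level, with an adjusted p of 0.00977 in limma. In the controls AATF stood at 8.74, 8.50 and 8.34 with the mimic control and 8.93, 8.93 and 9.03 with the inhibitor control, so the mimic control was also the lower of its pair, by 0.44 on the mean. That difference of -0.44 was at an adjusted p of 0.525 in limma.

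ILK, the integrin-linked kinase of focal adhesions, was at 7.68, 7.90 and 7.45 with the mimic and 9.24, 9.28 and 9.20 with the inhibitor. The inhibitor values lay within 0.08 of each other and above all mimic values. ILK fell by 1.56 on the log2 scale (standard error 0.13, adjusted p = 0.00977 in limma), and the controls differed by 0.02. CNN2, calponin 2, which binds actin filaments, was at 8.98, 9.15 and 8.45 with the mimic and 10.50, 10.54 and 10.08 with the inhibitor, a fall of 2.86-fold with the same adjusted p. Occasion 3 was the lowest in both arms, which the pairing takes into account. A second CNN2 probe set was lower by the same pairing at -1.09, and did not pass the adjusted threshold (adjusted p = 0.131 in limma). DDA1, a subunit of cullin ubiquitin ligases that hold DDB1, was at 8.48, 8.71 and 8.36 against 9.83, 9.76 and 9.68. It fell by 1.24 on the log2 scale (standard error 0.13, adjusted p = 0.0325 in limma), with a control difference of -0.07.

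KLF2, a zinc finger transcription factor best known from endothelium and T cells, was the gene that rose. Its values were 11.41, 10.92 and 10.44 with the mimic and 8.98, 9.38 and 8.30 with the inhibitor. Both controls stood with the inhibitor, at 8.94, 9.20 and 8.63 and at 9.06, 9.35 and 8.66, so that the 3 mimic arrays were above all 9 others. The difference was 2.04 (standard error 0.18, adjusted p = 0.0127 in limma), 4.10-fold, and the controls differed by -0.10. Occasion 3 was the lowest in all 4 groups.

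**Figure D1:**
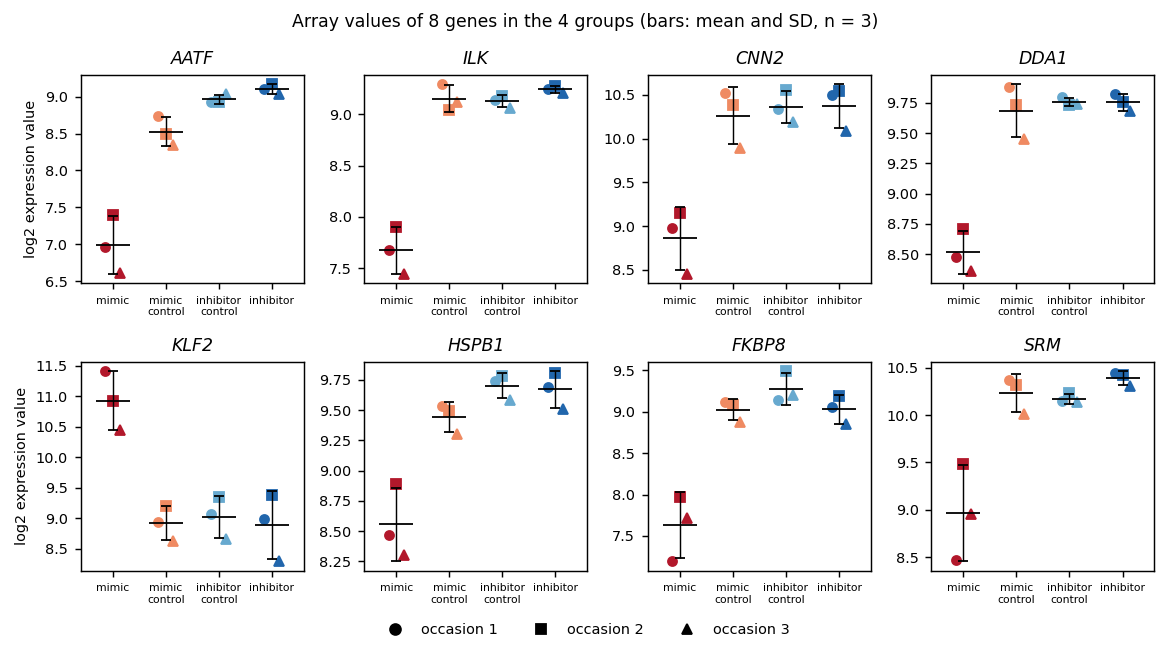
Log2 expression values of 8 genes (vertical axes, scaled per gene) on each of 3 occasions (marker shape) in the mimic, mimic control, inhibitor control and inhibitor groups, with the mean and SD of 3 arrays. The 5 genes past the adjusted threshold are AATF, ILK, CNN2, DDA1 and KLF2. In all 8 the mimic arrays stand apart from the inhibitor arrays, which the naming rule required of HSPB1, FKBP8 and SRM. KLF2 is the one that is higher, between 10.44 and 11.41.

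These 5 calls depend on the full set of occasions. Without any 1 occasion no probe set passed in limma, and without any single mimic or inhibitor array none passed, except that 11 passed without mimic replicate 2. With no replicate block 2 passed, and none passed when only the 6 arrays were fitted. No direction changed, with AATF between -2.31 and -1.95, ILK between -1.68 and -1.47 and KLF2 between 1.82 and 2.28 over all 25 alternative settings.

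The genes next in order missed the adjusted threshold and are given as values. HSPB1, a small heat shock protein, was at 8.47, 8.89 and 8.30 with the mimic and 9.69, 9.81 and 9.51 with the inhibitor, a difference of -1.12 with an adjusted p of 0.0565 in limma. FKBP8, an outer mitochondrial membrane protein that binds BCL2, was at 7.20, 7.97 and 7.72 against 9.06, 9.19 and 8.85, or -1.40 (adjusted p = 0.0717 in limma). SRM, spermidine synthase, was at 8.47, 9.48 and 8.95 against 10.44, 10.42 and 10.31, or -1.43 (adjusted p = 0.146 in limma), and its mimic arrays spread over 1 log2 unit where its inhibitor arrays did not. In all 3 genes the arms did not overlap, which the rule that named them required. NOX1, with an adjusted p of 0.0717 in limma, was passed over by that rule because its arms overlap. The rest of the lower genes named by the rule were WIPF3 at -0.81, TOMM40, the pore of the mitochondrial import channel, at -0.96, CLSTN1 at -1.04 and S100A9 at -1.16, with S100A9 also lower in the mimic control than in the inhibitor control by a difference of -0.83.

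The higher genes next in order also missed the adjusted threshold, with adjusted p-values of 0.148 to 0.245 in limma. FST, the secreted activin antagonist follistatin, was at 8.04, 8.22 and 8.23 with the mimic and 7.15, 7.63 and 7.27 with the inhibitor, a difference of 0.82, and both controls lay between 6.73 and 7.17. WEE1, the kinase that holds CDK1 inactive, was higher by 0.87, CCNG2, an unconventional cyclin of quiescent cells, by 0.76, and PHLPP2, a phosphatase of AKT, by 0.89. For these last 3 the mimic control was also higher than the inhibitor control, by 0.39, 0.42 and 0.43. KIF5C, a kinesin heavy chain, differed by 1.10, IL1RAP by 0.70, NTF4 by 0.63, SUCO by 0.67 and MAP1B by 0.66. The difference was 0.47 for KIF5C and 0.40 for IL1RAP between the controls, so several higher genes shared their direction with the oligonucleotide type and FST did not.

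Whether the kind of oligonucleotide moves the same genes was examined in the 6 control arrays. Between the mimic control and the inhibitor control 11 probe sets (0.0205%) passed the adjusted threshold in limma, 10 of them lower in the mimic control (0.0187%), and 4669 (8.71%) were at an unadjusted p under 0.05. Of the 5918 probe sets at the unadjusted threshold for mimic against inhibitor, 736 (12.4%) were also there for the controls in the same direction and 197 (3.33%) in the opposite one. The 736 are 15.8% of those reached by the controls. Over all probe sets the differences correlated with Pearson's r = 0.10 and Spearman's rho = 0.11, and over protein-coding genes with r = 0.22 and rho = 0.22. These points are probe sets of the same arrays and are not independent.

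CXCL5, a neutrophil chemokine, fell by 1.80 in the mimic control against the inhibitor control (adjusted p = 0.0359 in limma). It was at 8.88, 9.34 and 9.41 with the mimic and 10.15, 10.29 and 10.48 with the inhibitor, a difference of -1.10, and at 8.56, 8.22 and 8.22 with the mimic control. For CXCL5 both mimic-type oligonucleotides thus stood below both inhibitor-type ones. RPPH1, the RNA of ribonuclease P, fell by 1.49 between the controls and differed by -0.12 between mimic and inhibitor. SNORA2A, a small nucleolar RNA, fell by 2.04 between the controls and differed by -0.10 between mimic and inhibitor. POMK, a kinase of dystroglycan glycosylation, and TPD52L2 fell by 1.02 and 1.03 between the controls against differences of -0.24 and 0.06. No probe set passed the adjusted threshold for the difference between both comparisons (0.0%), and 3765 (7.02%) were at an unadjusted p under 0.05. KLF2, ILK and CNN2 had adjusted p-values of 0.11, 0.109 and 0.127 in that test in limma, with a gap of 2.14, -1.59 and -1.42 between the active and the control difference.

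**Figure D2:**
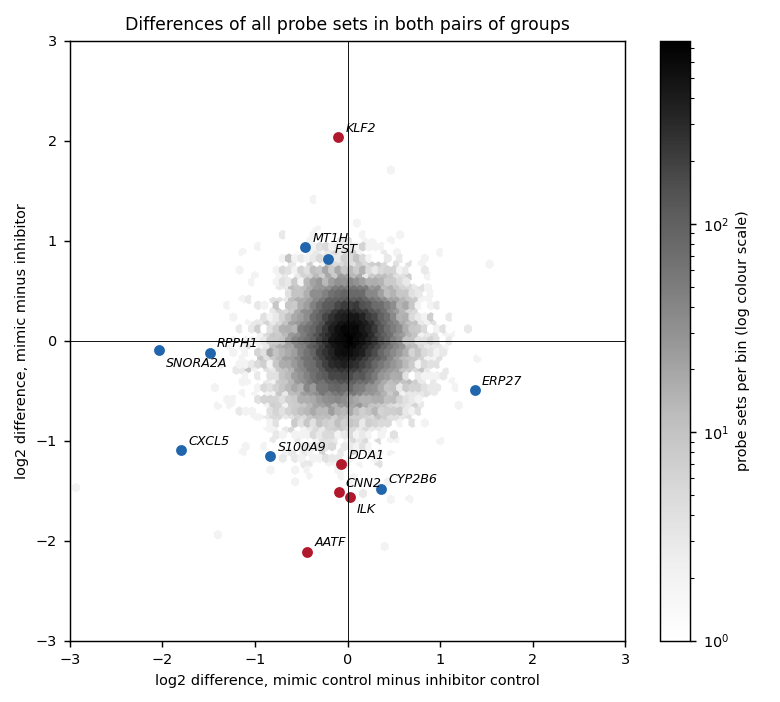
Log2 difference of every probe set for mimic control minus inhibitor control (horizontal axis) and mimic minus inhibitor (vertical axis), binned with a log colour scale, with named genes in red where the adjusted p of mimic minus inhibitor was under 0.05 and in blue otherwise. KLF2, ILK, CNN2 and DDA1 lie near 0 on the horizontal axis, CXCL5 at -1.80 and -1.10, and SNORA2A and RPPH1 only on the horizontal axis.

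The listed genes that build ribosomes were lower with the mimic. Of 17 measured factors of ribosome biogenesis, which transcribe and process ribosomal RNA, all 17 were lower, with a median difference of -0.45. AATF passed the adjusted threshold, and with it 13 were at an unadjusted p under 0.05 where 10.4% of protein-coding genes were lower at that threshold. The list was drawn up with earlier results of these data known and holds AATF, so its counts are no independent evidence. NOLC1, a nucleolar phosphoprotein, was at 7.60, 7.96 and 7.01 with the mimic and 8.11, 8.54 and 8.06 with the inhibitor, a difference of -0.72. BYSL, needed for the small subunit, differed by -0.59 and FBL, the methyltransferase fibrillarin, by -0.47. The control difference had a median of -0.22 in the same list, with 5 lower at the unadjusted threshold and none higher, where the controls had 4.88% of protein-coding genes lower and 5.24% higher. The medians by occasion were -0.52, -0.33 and -0.47. Without occasion 1 the count was 7 of 17, and without occasion 2 or 3 it was 11. For the difference between both comparisons 4 of the 17 were lower at the unadjusted threshold and none higher (5.12% and 2.35% over protein-coding genes).

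Proteins of the ribosome itself showed the same sign. Of 52 cytosolic ribosomal proteins 48 were lower, 30 of them at an unadjusted p under 0.05 (10.4% over protein-coding genes) and none higher at it, and the median was -0.28. RPS28 was at 11.10, 11.74 and 11.40 with the mimic and 12.08, 12.22 and 12.09 with the inhibitor, a difference of -0.71, and RPS15A differed by -0.72. RPL22L1, a paralog of RPL22, was at 4.91, 5.63 and 5.56 against 5.87, 6.16 and 6.47, or -0.80. No ribosomal protein passed the adjusted threshold. In the controls 7 of the 52 were lower at the unadjusted threshold (4.88% over protein-coding genes), with a median of -0.13. RPL29 differed as much there, at -0.45, as between mimic and inhibitor, at -0.46. For the difference between both comparisons 4 of the 52 were lower at the unadjusted threshold and none higher (5.12% and 2.35% over protein-coding genes). Most of the 30 thus did not differ from their control difference at that threshold. The count of 30 fell to 6 without occasion 1, 14 without occasion 2 or occasion 3, 17 after a renewed quantile normalization and 19 with no replicate block, and the median stayed between -0.34 and -0.21. Ribosomal protein genes have many near-identical processed copies, which can share probes.

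Of 73 mitochondrial ribosomal proteins, which translate the messengers of the mitochondrial genome, 70 were lower and 38 were so at an unadjusted p under 0.05, with a median of -0.28 and none higher at it, where 10.4% of protein-coding genes were lower. MRPS14 was at 6.87, 7.03 and 6.27 with the mimic and 7.37, 7.32 and 7.35 with the inhibitor, a difference of -0.62. MRPS17 differed by -0.58 and MRPS21 by -0.46. In the controls the median was -0.05, with 6 lower at the unadjusted threshold beside 4.88% over protein-coding genes. The medians by occasion were -0.27, -0.13 and -0.38. Without occasion 1 the count was 5, without occasion 2 it was 18 and without occasion 3 it was 9. After a renewed quantile normalization it was 19 and with no replicate block 14. The sign of the median held in all 25 alternative settings. For the difference between both comparisons 7 of the 73 were lower at the unadjusted threshold and 1 higher (5.12% and 2.35% over protein-coding genes). The 28 subunits of the respiratory chain and ATP synthase, which make ATP from the electrons of nutrients, had a median of -0.12. At the unadjusted threshold 3 of them were lower, near the 10.4% over protein-coding genes, and none higher. Between the controls 2 were lower and 1 higher at it. ATP5F1D, a subunit of the ATP synthase rotor, was at 7.75, 8.48 and 7.17 against 9.18, 8.84 and 8.49, a difference of -1.04 with an adjusted p of 0.214 in limma.

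**Figure D3:**
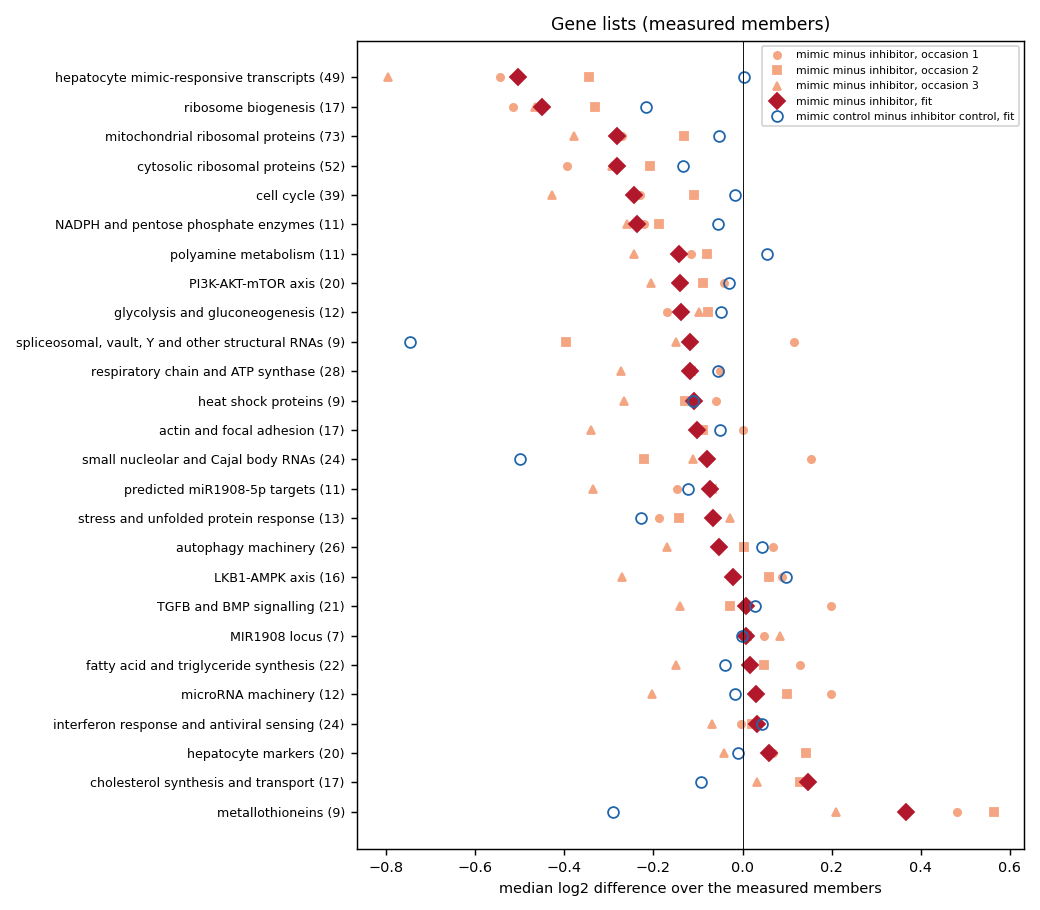
Median log2 difference over the measured members of each gene list (number in brackets) for mimic minus inhibitor in the fit and on each of 3 occasions, and for mimic control minus inhibitor control in the fit. Ribosome biogenesis lies at -0.45 with its control median at -0.22, both ribosomal protein lists at -0.28, and the metallothioneins at 0.37 with their control median at -0.29.

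In the cell cycle list, 37 of 39 genes were lower with a median of -0.24, 13 at an unadjusted p under 0.05 (10.4% over protein-coding genes, of which 56.1% had a negative difference) and 1 higher at it, CCNG2. MYC, the growth-driving transcription factor, was at 6.54, 7.61 and 7.41 with the mimic and 8.19, 8.39 and 7.99 with the inhibitor, with differences of -1.66, -0.78 and -0.58 on occasions 1, 2 and 3. TYMS, which makes thymidylate, differed by -0.86, MCM7 and MCM4 of the replicative helicase by -0.51 and -0.46. The mitosis genes CDK1, CCNB1 and PLK1 were at -0.04, -0.13 and -0.12, none of these 3 at the unadjusted threshold. The control median was -0.02. Without occasion 3 the count of lower genes was 3, without occasion 1 or occasion 2 it was 9, and with no replicate block it was 2. TYMS was itself lowest on occasion 3 in every group, where the mimic array read 6.42 and the inhibitor array 7.84.

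Metallothioneins, which hold zinc and copper through their many cysteines, had higher values with the mimic. All 9 measured members had a positive difference, with a median of 0.37, and 5 were at an unadjusted p under 0.05, where 3.65% of protein-coding genes were higher at it. MT1H was at 7.74, 7.05 and 7.73 with the mimic and 6.67, 6.34 and 6.71 with the inhibitor, a difference of 0.93. MT1M was at 9.57, 9.45 and 8.94 against 8.43, 8.79 and 8.40, or 0.78. In both genes the arms did not overlap, which the rule that named them required. The controls went the other way, with 8 of 9 lower in the mimic control, a median of -0.29, and MT1X at -0.69 there against 0.39 between mimic and inhibitor. Metallothionein genes are near-identical paralogs whose probes can share signal, so the 9 are not independent. The count was 2 without occasion 2, and 3 without occasion 1 or with no replicate block.

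Genes of sterol synthesis were higher to a smaller degree. Of 17 measured, 12 were higher, 5 at an unadjusted p under 0.05 (3.65% over protein-coding genes) and none lower at it, with a median of 0.15 against -0.09 in the controls. INSIG1, which retains the sterol sensor in the endoplasmic reticulum, was at 10.97, 10.77 and 9.99 with the mimic and 10.39, 10.21 and 9.37 with the inhibitor. The arms overlap because of occasion 3, and within each occasion the mimic was higher, by a mean of 0.58. STARD4, a cholesterol carrier, differed by 0.41 and HMGCS1, which feeds the mevalonate pathway, by 0.38. The count was 1 without occasion 1 and 2 without occasion 2, 3 when the arrays were centred on a common median and 0 with no replicate block.

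The LKB1-AMPK axis was of interest because the study set out from energy balance. STK11 had log2 values of 6.85, 7.11 and 6.81 with the mimic and 7.25, 7.58 and 7.29 with the inhibitor. The arms did not overlap, and the difference of -0.45 (95% confidence interval -0.79 to -0.11) had an adjusted p of 0.354 in limma. The controls differed by -0.12. CRTC1, a coactivator held in the cytoplasm by LKB1-dependent kinases, differed by -0.41 without overlap. PRKAB2 and PRKAA2, the β2 and α2 subunits of AMPK, were higher by 0.45 and 0.34, with overlap in both. Of the 16 genes measured on this axis 8 were lower and 8 higher, with 2 lower and 1 higher at the unadjusted threshold, near the 10.4% and 3.65% over protein-coding genes, and a median of -0.02, whose sign changed in 5 of 25 settings.

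On the insulin and mTOR axis 13 of 20 genes were lower, 3 of them at an unadjusted p under 0.05, near the 10.4% over protein-coding genes, with a median of -0.14. The 3 were EIF4EBP2 and EIF4EBP1, repressors of cap-dependent translation that mTOR inactivates, and PIK3R2, a regulatory subunit of PI3-kinase. EIF4EBP2 was at 10.41, 10.39 and 9.67 with the mimic and 11.05, 10.72 and 10.65 with the inhibitor, a difference of -0.65 against 0.18 in the controls. EIF4EBP1 differed by -0.58 and in the controls by -0.46. PIK3R2 was at 7.17, 7.33 and 6.88 against 7.61, 7.38 and 7.47, or -0.36, while the controls went the other way by 0.33. The kinases AKT1, AKT2, PDPK1 and MTOR differed by -0.21, -0.12, -0.22 and -0.19, none at the unadjusted threshold. Without occasion 1, or with no replicate block, a single gene of the list was lower at that threshold.

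Among enzymes that make NADPH or belong to the pentose phosphate pathway, 5 of 11 measured were lower and 1, TKTL1, higher at an unadjusted p under 0.05, where 10.4% and 3.65% of protein-coding genes were, with a median of -0.24 against -0.06 in the controls. ME1, the cytosolic malic enzyme, was at 8.91, 9.72 and 8.88 with the mimic and 10.10, 10.33 and 9.67 with the inhibitor. Its arms overlap between occasions, and on each occasion the mimic was lower, by a mean of 0.87 (adjusted p = 0.207 in limma). PGLS, RPIA and TKT of the pentose phosphate pathway differed by -0.64, -0.59 and -0.48. NNT, the mitochondrial transhydrogenase, stood at 0.09. For the difference between both comparisons 1 of the 11 was lower and 1 higher at the unadjusted threshold (5.12% and 2.35% over protein-coding genes). In fatty acid synthesis SLC25A1, the mitochondrial citrate carrier, was at 7.71, 7.98 and 6.87 against 8.59, 8.69 and 7.83, a difference of -0.85, with -0.33 in the controls. FASN, fatty acid synthase, differed by -0.37 and ACACA, acetyl-CoA carboxylase, by -0.23. Of the 22 genes of that list 3 were lower and 2 higher at the unadjusted threshold (10.4% and 3.65% over protein-coding genes). Between the controls 2 were lower and 2 higher at it (4.88% and 5.24% over protein-coding genes). The median of mimic minus inhibitor was 0.02, and its sign changed in 4 of 25 settings. At the locus of MIR1908 itself none of 7 genes was at the threshold, with FADS1 at 0.18 and FADS2 at 0.15.

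**Figure D4:**
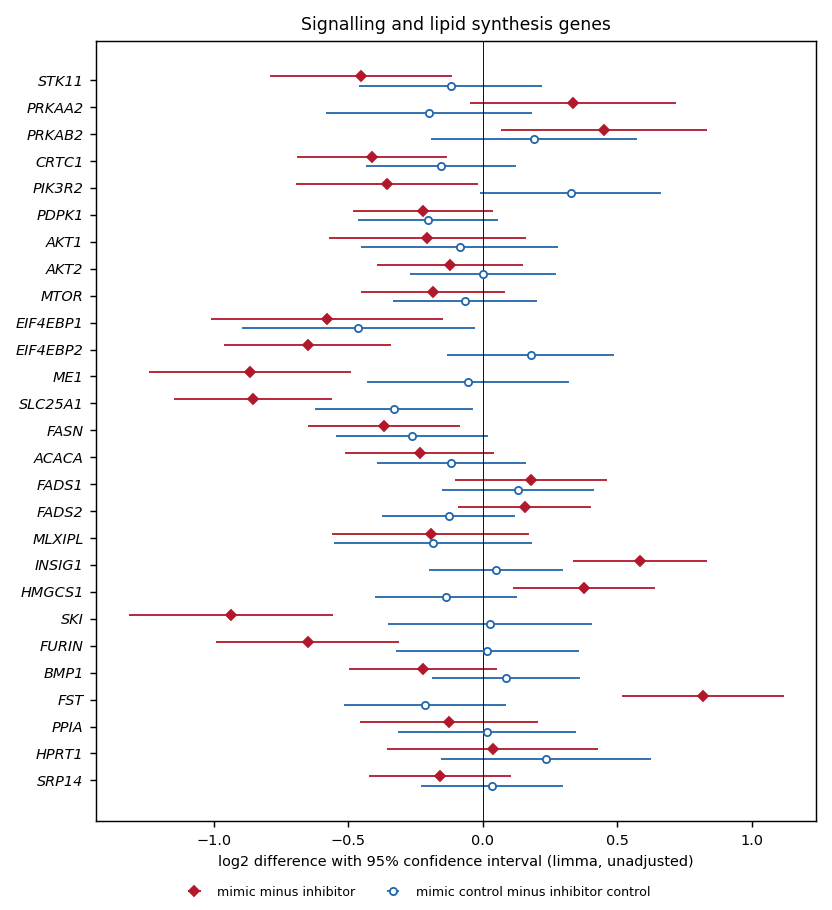
Log2 difference with its unadjusted 95% confidence interval from limma for genes of LKB1-AMPK, PI3K-AKT-mTOR, NADPH, lipid and TGFβ-BMP pathways and 3 reference genes, for mimic minus inhibitor (red) and mimic control minus inhibitor control (blue). ME1 and SLC25A1 lie at -0.87 and -0.85, STK11 at -0.45, INSIG1 at 0.58 and FST at 0.82, and the reference genes PPIA, HPRT1 and SRP14 between -0.16 and 0.04.

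In TGFβ and BMP signalling, 2 of 21 genes were lower and 1 higher at an unadjusted p under 0.05, close to the share of lower genes among all protein-coding genes. SKI, a corepressor of SMAD proteins, was at 6.22, 6.22 and 5.28 with the mimic and 7.13, 6.90 and 6.50 with the inhibitor, a difference of -0.94. FURIN, the protease that matures TGFβ ligands, differed by -0.65 and BMP1 by -0.22. FST was the higher member. In actin and focal adhesion genes 6 of 17 were lower and 1 higher at the unadjusted threshold, where 10.4% and 3.65% of protein-coding genes were. ILK and CNN2 passed the adjusted threshold, and ACTN1, ABL1 and ZYX were at -0.46, -0.63 and -0.47. The list was drawn up with earlier results of these data known and holds ILK and CNN2, so its counts are no independent evidence. The interferon list, which would respond to foreign double-stranded RNA, had 1 lower and 1 higher of 24, with MX2 at -0.63, CCL5 at 0.49 and a median of 0.03. Autophagy genes had 1 of 26 in each direction. For both lists the shares over protein-coding genes were again 10.4% lower and 3.65% higher. The median sign was not constant over the settings for interferon (5 of 25 changed), autophagy (2) or TGFβ and BMP (5).

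Small structured RNAs had their larger differences between the controls. The gap between both comparisons was tested for each probe set and not over a list as a whole. Of 24 small nucleolar and Cajal body RNAs 1 was lower between mimic and inhibitor at an unadjusted p under 0.05, with a median of -0.08, while 14 were lower in the mimic control against the inhibitor control, with a median of -0.50. Of 9 spliceosomal, vault, Y and other structural RNAs the counts were 1 and 5 and the medians -0.12 and -0.75. Over all probe sets 6.71% were lower between mimic and inhibitor at that threshold and 4.6% between the controls. For the gap between both comparisons 9 of the 24 were higher at that threshold and none lower. Of the 9 structural RNAs 4 were higher and 1 lower for the gap, where 3.17% and 3.86% of all probe sets were. SCARNA4, for example, was at 9.60, 9.33 and 9.84 with the mimic and 9.05, 9.62 and 9.46 with the inhibitor, but at 8.76, 8.73 and 9.14 with the mimic control and 9.45, 10.17 and 10.00 with the inhibitor control. Of 1097 microRNA genes 51 were lower and 57 higher between mimic and inhibitor, near the 6.71% and 4.32% over all probe sets. Of these MIR181A1 differed by 0.79 and MIR4433A by 0.99, both at low levels of 1.61 to 3.09 in the 6 arrays.

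A list of 49 probe sets that the study chose by their response to the mimic in primary human hepatocytes was followed on these arrays, whose values the choice did not use. Of the 49, 41 were lower and 33 of them so at an unadjusted p under 0.05, against 6.71% of all probe sets, and 1, CCNG2, was higher at it. The median was -0.50, and 4 of the 5 probe sets past the adjusted threshold belong to the list, namely AATF, ILK, CNN2 and DDA1, while KLF2 does not. The control difference of the list had a median of 0.00, with members moving in both directions. Between the controls 6 of the 49 were lower and 5 higher at an unadjusted p under 0.05, where 4.6% and 4.1% of all probe sets were. At the adjusted threshold 1 member passed between the controls. Beyond genes already described it holds CYP2B6, a drug-metabolizing cytochrome of hepatocytes, at 5.67, 6.13 and 4.49 with the mimic and 7.27, 6.67 and 6.80 with the inhibitor. That difference of -1.48 varied widely by occasion and had an adjusted p of 0.213 in limma. CREB3L3, a liver transcription factor of fasting, differed by -0.64 and in the controls by 0.88 in the other direction. The count of 33 was 24 without occasion 1, 31 without occasion 2 and 26 without occasion 3.

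**Figure D5:**
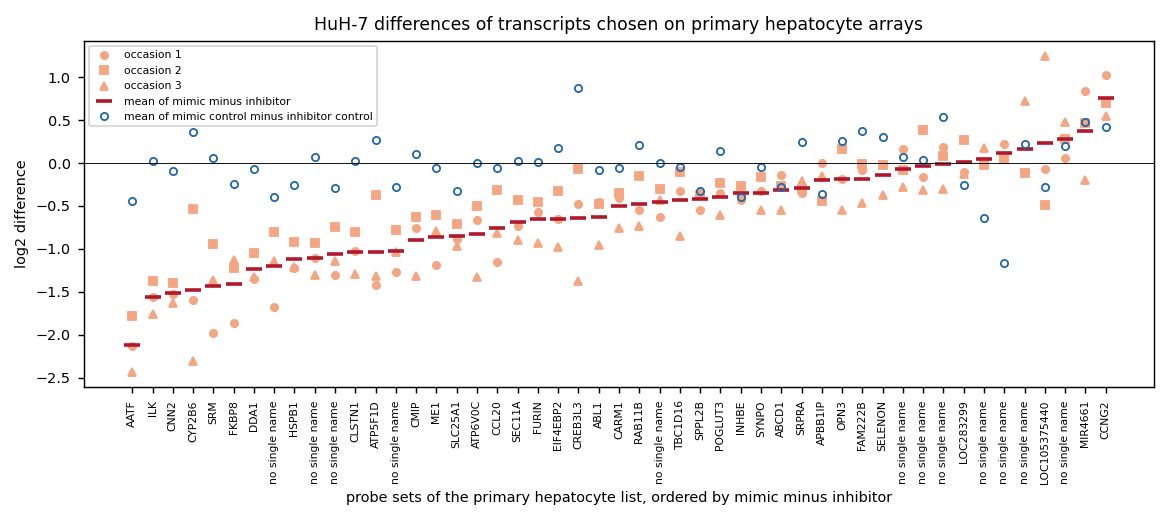
Log2 difference in HuH-7 cells (vertical axis) of the 49 probe sets of the primary hepatocyte list, ordered by mimic minus inhibitor, on each of 3 occasions and as means, beside the mean of mimic control minus inhibitor control. AATF lies lowest at -2.11, 41 means lie under 0, and the control means scatter around a median of 0.00.

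The study tabulated only the 20 top-scored of its many predicted miR1908-5p targets, so the rest of the prediction was not analysed here. Of these 20 genes 11 were measured, of which 3 were lower and none higher at an unadjusted p under 0.05 (10.4% and 3.65% over protein-coding genes). They were FKBP8 at -1.40, STK11 at -0.45 and CRTC1 at -0.41, and the list's median of -0.07 lay above its control median of -0.12. The remaining 8 ran from HDAC10 at -0.24 to EEF1A2 at 0.21. Of 20 hepatocyte markers 3 were lower and 2 higher at that threshold, beside the same 10.4% and 3.65%, with a median of 0.06. ALB differed by 0.12 and APOB by -0.01, while HP, haptoglobin, differed by -0.57 and was lowest on occasion 3 in every group. CD68 and LYZ, the leukocyte markers above, differed by -0.62 and -0.53, and their part in the results was not tested.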

How the data were processed

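RNA from 12 HuH-7 cultures was hybridized to HuGene-2_0-st arrays. The authors normalized the arrays in Affymetrix Expression Console, and the deposited log2 values were used without change. Its version and settings: not given in the sources used here. Of 53617 probe sets, 16081 were named by the platform annotation, 152 by the study's tables only, 27 had several symbols there, 37356 had none, and 1 is not reported here. The model was limma 3.58.1 (R 4.3.3, statmod 1.5.0), with group and occasion as terms over 12 arrays and 6 residual degrees of freedom, and Benjamini-Hochberg adjustment over all probe sets. A gene with several probe sets is represented by the one with the highest mean in lists. Symbols matching the proteasome pattern were not found. miRNA sequences are from RefSeq, GRCh38.p14.

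The design text gives each repeat number its own occasion. With group means taken out, arrays of 1 number correlated at a median of 0.24 (18 pairs) and arrays of different numbers at -0.14 (36 pairs), and the mimic and inhibitor arrays of 1 number at 0.22, 0.15 and 0.35. Taking out group means makes the values for different numbers negative where those for 1 number are positive. The -0.14 is therefore not a separate observation. On simulated data for mimic minus inhibitor with 53617 probe sets, 59 of 100 changed by a log2 value of 1 and 88 of 100 changed by 2 passed the adjusted threshold, with 10 false calls among 53417. The simulated noise was independent between probe sets, and the changes were put in the mimic arrays alone. These shares check the fit and are not the sensitivity on the real arrays. Precision is limited by the number of arrays.

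The members and lists were chosen with earlier results of these data known. Named genes are, per direction, those with an adjusted p under 0.05, filled to 12 with the lowest unadjusted p among protein-coding genes whose arms did not overlap, together with the genes the study names, up to 5 genes of lowest p per list, the 5 per direction of lowest p between the controls, and members of the hepatocyte list past the adjusted threshold. A few further list members are named for context, and were chosen after their values were seen. Alternatives were no block, the 6 arrays alone, renewed quantile normalization, a common median, a mean log2 value of at least 5, array weights, a robust prior with an intensity trend, probe sets with 1 symbol, the methods' test, and leaving out each array or occasion. The primary hepatocyte arrays were not analysed here.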

Additional observations from a re-analysis of the deposited data

How the results depend on the processing

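The 5 adjusted calls between mimic and inhibitor became 9 with a common median, 65 for probe sets of mean log2 value at least 5, 54 with an intensity trend and robust prior, 19 with array weights, 88 over probe sets with 1 symbol, 2 with no replicate block, and 0 on the 6 arrays alone with or without the block and in the methods' test. With 1 array or occasion left out they ranged from 0 to 11, with 3 without mimic control replicate 2. The 5918 unadjusted calls became 3635 with no replicate block, 2863 on the 6 arrays without it, 2667 over probe sets with 1 symbol, 3105 in the methods' test and from 3717 to 7447 with 1 array or occasion left out. Lower probe sets made up 60.8% of unadjusted calls, 76.4% with a common median and 54.6% with renewed quantile normalization.

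For the controls, the 11 adjusted calls became 2 with no replicate block, 0 on the 6 arrays with or without the block, with renewed quantile normalization, in the methods' test and with any array or occasion left out, 81 for a mean of at least 5, 96 with the intensity trend and 19 with array weights. Their 4669 unadjusted calls became 2833 with no replicate block, 2703 on the 6 arrays without it, 1992 over probe sets with 1 symbol, 2629 in the methods' test and from 3102 (without replicate 2) to 5375 with 1 array or occasion left out. The difference between both comparisons, with 0 adjusted calls, gave 10 for a mean of at least 5, 20 with the intensity trend, 11 over probe sets with 1 symbol and 0 to 1 with 1 array or occasion left out, the 1 without replicate 1. Its 3765 unadjusted calls became 2276 with no replicate block and 1610 over probe sets with 1 symbol. The causes were not tested, apart from the smaller number of features or samples in some settings. AATF, ILK, CNN2, DDA1 and KLF2 changed direction in no setting, while NNT ran from -0.13 to 0.29, PPIA from -0.25 to 0.05 and HPRT1 from -0.17 to 0.27 over the settings. Not every gene named above was followed singly over the settings.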

Other observations

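When p-values were adjusted over probe sets with 1 gene symbol alone, 88 passed, and in 71 of them the arms did not overlap. Over all probe sets they did not overlap in 6.96% with the mimic lower and 5.64% with it higher. The 88 were chosen by low p on these same values, so the 71 are no added evidence. Between the controls 24 of the 88 were at an unadjusted p under 0.05 in the same direction. Of all probe sets 8.71% were so in either direction. The genes of this paragraph and the next were chosen after their values were seen. Several act in the nucleolus. RRS1, which brings 5S ribosomal RNA into the large subunit, was at 6.52, 6.96 and 6.31 with the mimic and 7.61, 7.59 and 7.40 with the inhibitor, a difference of -0.93. EXOSC5 of the RNA exosome differed by -0.89, NPM3, a nucleophosmin relative, by -0.87, NOP16 by -0.82, NLE1 by -0.72, NOP2 by -0.65 and GNL3L by -0.64. The controls were lower by 0.38 on the mean for NOP2 and differed by -0.14 for RRS1.

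NOX1, a catalytic subunit of the NADPH oxidases, was at 6.95, 7.57 and 5.36 with the mimic and 9.19, 8.98 and 7.11 with the inhibitor, a difference of -1.80 with an adjusted p of 0.0717 over all probe sets in limma. Its arms overlap because of occasion 3, the lowest in all 4 groups. The mimic control was also below the inhibitor control, by a difference of -0.82. ORM2 and ORM1, near-identical acute phase proteins of the liver, differed by -1.25 and -0.90, and by -0.45 and -0.65 between the controls. In adhesion and kinase signalling FERMT1, an integrin activator, differed by -0.86, CSK, which inactivates SRC kinases, by -0.78, EPHA2 by -0.77 and GRK2, named from the study's tables alone, by -0.76.

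Among protein-coding probe sets, 12 of the 63 lower calls lie on chromosome 19, where 7.54% of the 12794 named protein-coding probe sets lie, as do 2 of the 13 higher ones, KLF2 and NTF4. On chromosome 1 there were 8 of the 63 lower calls, and 9.85% of the named protein-coding probe sets. The chromosome was looked at after the calls were known, and no test was made.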
